A study of Homo sapiens with 40 samples.

Results

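Exons that wild-type (WT) cells leave out of most transcripts were followed in human cells running on slow or fast RNA polymerase II. They were chosen by their level in WT RNA-seq libraries. An exon was taken when it was longer than 50 nt and shorter than 300 nt and when fewer than 20% of the reads at its position in WT cells supported inclusion. Of 15724 exon events in the authors' deposited tables of RNA-seq, 2823 met this rule. They are 2783 distinct exons of 2070 genes, 51 to 298 nt long, and 1119 of them have a length divisible by 3.

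The cells were HEK293 Flp-in T-REx, a line from human embryonic kidney in which a gene can be inserted at 1 fixed site and switched on. Each line carried an integrated Rpb1 gene (pcDNA5 Rpb1 Amr), which encodes the large subunit of RNA polymerase II in a form that resists α-amanitin. In R749H, H1106Y and E1126G cells that subunit has 1 substitution, and in the WT line it has none. R749H and H1106Y are known as slow forms of the polymerase and E1126G as a fast form. All lines, WT included, received doxycycline to switch on the transgene and then α-amanitin for 42 h to block the cell's own polymerase. RNA-seq covered R749H, E1126G and WT with 2 libraries each. RASL-seq, which counts pairs of probes ligated across chosen splice junctions, covered R749H, H1106Y, E1126G and WT with 3 libraries each. The authors' deposited tables give 1 value per genotype and exon with the libraries combined, so no value per library, standard deviation or read depth is given for any level here. The number of clones behind each line is not given in the labels.

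Most splicing happens while the polymerase is still moving along the gene. A slow polymerase leaves more time between the synthesis of an exon with weak splice sites and that of its competitor downstream, and a fast one leaves less. Within coding sequence, an exon whose length is divisible by 3 leaves the reading frame unchanged, whereas any other length shifts it. The exons here were not placed in coding or untranslated sequence and their stop codons were not read, so only lengths are compared. In many genes of splicing factors a mostly skipped exon is a poison exon, which brings in a stop codon and sends the transcript to nonsense-mediated decay. Such decay can lower the counted share of transcripts with the exon.

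In WT RNA-seq the exons were spread over the whole range below the limit. Inclusion was under 1% for 142 of them, 1% to 2% for 256, 2% to 5% for 798, 5% to 10% for 844, 10% to 15% for 462 and 15% to 20% for 321. The limit cuts a continuous range. Just inside it lay exons of WBP1 (85 nt) and SEC11A (136 nt), both at 19.9% WT inclusion in the authors' deposited tables. Just outside it lay exons of PPP6R3 (139 nt) and NRDE2 (117 nt), both at 20.0%.

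The RASL-seq libraries took no part in the choice and also showed these exons as mostly skipped. Of the 237 that RASL-seq covered, 193 (81.4%) were below 20% WT inclusion in the authors' deposited tables, against 492 of the other 2219 RASL-seq exons (22.2%). Their median WT inclusion was 4.33%, against 75% for the other RASL-seq exons. Only 11 of the 237 stood at 50% or more, against 1404 of the others. Probe pairs differ in efficiency, so a level in one assay is not the same quantity as in the other. Across the 207 exons shared with the R749H RNA-seq table, the log ratios of WT inclusion in both assays had a Pearson's r of 0.37 and a Spearman's rho of 0.43. Both coefficients describe exons of the same cell line over a range cut short by the rule.

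**Figure D1:**
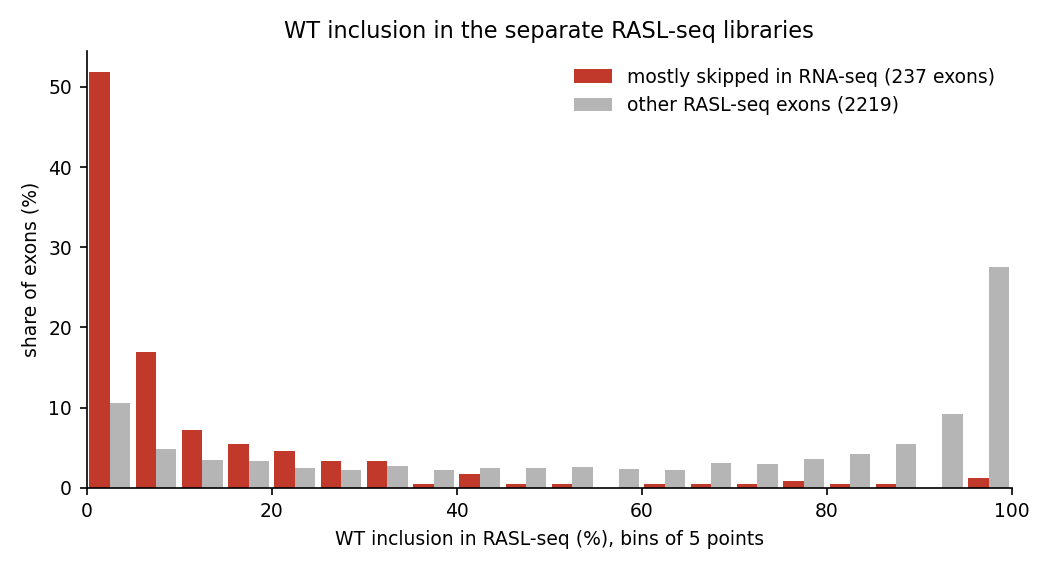
WT inclusion in RASL-seq (x axis, percent, in bins of 5 points) of 237 exons that were mostly skipped in WT RNA-seq (red) and of the other 2219 RASL-seq exons (grey), each as a share of its own group (y axis, percent). The red bars pile up at the low end, with 81.4% of exons below 20%, against 22.2% of the grey ones.

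In R749H cells a set of these exons rose past 50% inclusion. Of the 2633 mostly skipped exons in the R749H RNA-seq table, 45 exceeded 50% inclusion with a call. A call here is an adjusted p under 0.05, from the authors' deposited p-values after Benjamini-Hochberg adjustment across the 14358 events in that table. Higher inclusion was called for 314 exons, against 7.07% of all events, and lower inclusion for 94, against 8.04%. Together these are 15.5% of the mostly skipped exons, close to the 15.1% called over all events. Of the called exons 77.0% were higher, against 46.8% of called events over the whole table and 40.5% among the other exons of this length. The WT value that chose the exons is also the value the change is measured from, and an exon close to 0% has little room to fall, so this split is a description and carries no test. The median log2 change of all 2633 exons was 0.09, against a median of 0.00 over all events (-0.00479). At least 10 percentage points separated R749H from WT for 233 of the higher and 24 of the lower exons. Over all events these counts were 655 and 779, and an exon under 10% in WT cells cannot fall that far.

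**Figure D2:**
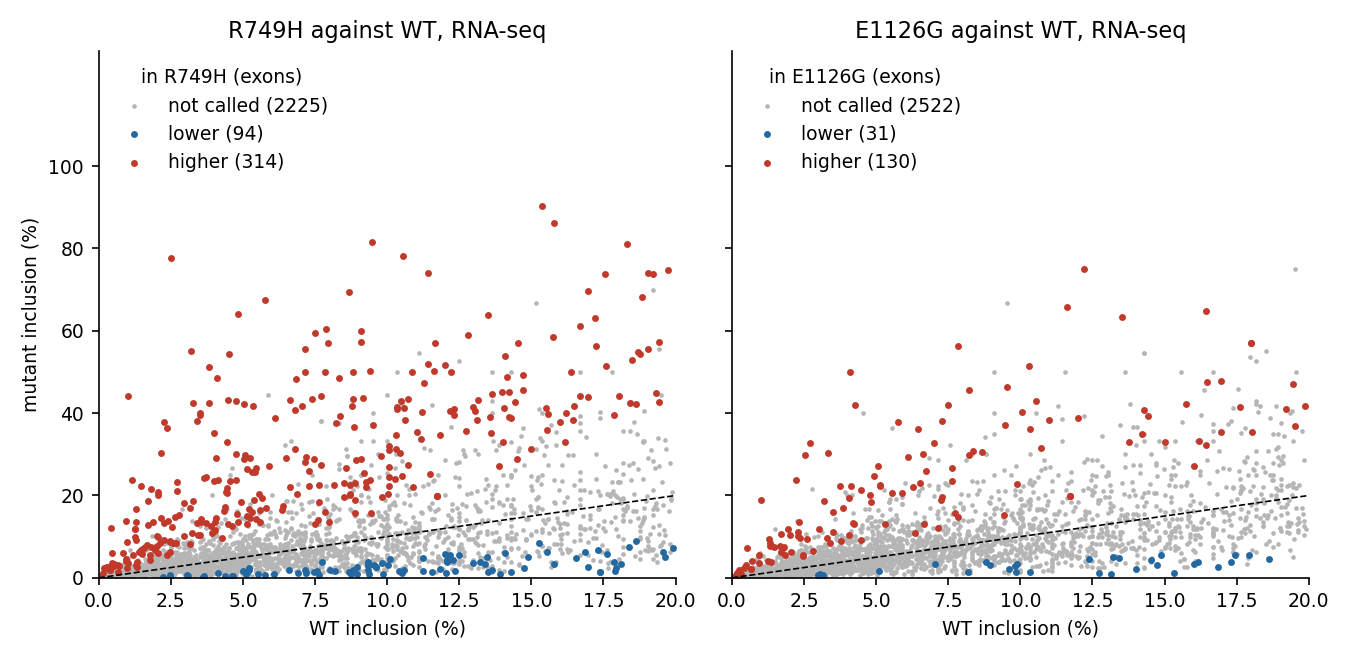
Inclusion in the mutant (y axis, percent) against inclusion in WT cells (x axis, percent) for each mostly skipped exon in RNA-seq, in R749H (left) and E1126G (right). Exons called higher are red, exons called lower are blue and the others are grey, and the dashed line marks equal levels; 314 exons were called higher in R749H and 130 in E1126G.

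The exons with the 10 largest R749H increases stood at 64.2% to 90.3% inclusion in R749H RNA-seq. How inclusion was counted is not known, so whether these exons are in most transcripts was not tested. RASL-seq levels in R749H, given below for DIS3 and PHF20L1, were lower (26.4% and 5.33%). In MCM3, which helps unwind DNA at replication forks, a 151-nt exon (chromosome 6, 52130033 to 52130183, build GRCh37), stood at 78.2% in R749H, 42.9% in E1126G and 10.5% in WT cells in the authors' deposited tables. The MCM3 change of 4.93 on the log2 scale in R749H passed the test (adjusted p = 2.6e-61). So did its change of 2.67 in E1126G (adjusted p = 6.6e-19). A 125-nt exon of MPHOSPH8, which binds methylated histone H3 in silenced chromatin (chromosome 13, 20244980 to 20245104), stood at 81.5% in R749H, 37.2% in E1126G and 9.48% in WT cells in the authors' deposited tables. The MPHOSPH8 exon was called higher in E1126G too (adjusted p = 0.0034). Neither of these 2 lengths is divisible by 3. The same holds for the 68-nt exon of DIS3, a nuclease of the RNA exosome (chromosome 13, 73355427 to 73355494). In the authors' deposited tables of RNA-seq it stood at 81.1% in R749H, 41.8% in E1126G and 18.3% in WT cells. RASL-seq put the same DIS3 exon at 26.4% in R749H, 63.2% in H1106Y, 20.3% in E1126G and 7.2% in WT cells, and each of these 3 increases passed the test (adjusted p = 9.6e-04, 5.7e-25 and 1.9e-04 in the authors' deposited tables after adjustment).

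ZBTB21, a zinc finger repressor, had the highest R749H level of the group. Its 131-nt exon (chromosome 21, 43429576 to 43429706) stood at 90.3% in R749H, 11.8% in E1126G and 15.4% in WT cells in the authors' deposited tables. A 132-nt exon of GAK, a kinase that helps uncoat clathrin vesicles (chromosome 4, 853150 to 853281), stood at 64.2% in R749H, 14.7% in E1126G and 4.84% in WT cells in the authors' deposited tables. A 192-nt exon of NT5C2, a cytosolic nucleotidase (chromosome 10, 104860509 to 104860700), stood at 69.4%, 30.5% and 8.67% in R749H, E1126G and WT cells in the authors' deposited tables. In these genes the mutant levels lie on opposite sides of 50%. By the approximate test of R749H against E1126G given below, only the GAK difference passed (adjusted p = 0.018). Those of ZBTB21 and NT5C2 did not (adjusted p = 0.091 and 0.11). Exons of TM2D1, a membrane protein, PHF20L1, a reader of methylated lysines, and the noncoding RNA NR2F1-AS1 belong to the 10 largest increases too, and these 10 ranged from 59.3 to 75.3 points. In the authors' deposited tables the PHF20L1 exon was at 5.33% in R749H and 15% in WT cells on RASL-seq, a difference that did not pass (adjusted p = 0.15). NR2F1-AS1 runs antisense to its neighbour and the sources used here do not say whether counting used the strand, which leaves this value uncertain. SMPD4BP, with 77.8% in R749H, 29.9% in E1126G and 2.52% in WT cells in the authors' deposited tables, is a pseudogene whose reads may come from a near-identical copy. Exons of NT5C2, PHF20L1 and SMPD4BP were also called higher in E1126G RNA-seq (adjusted p = 0.004, 0.024 and 8.5e-06). Those of ZBTB21, GAK and NR2F1-AS1 were not called there (adjusted p = 0.94, 0.13 and 0.32), and DIS3 lay at the threshold (0.05). TM2D1 has no E1126G value.

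Decreases were smaller in points, which the choice of exons fixed, since an exon under 20% WT inclusion cannot fall by 20 points. The 5 largest in R749H spanned 14.7 to 16.3 points and left the exons at 1.52% to 4.96%, against 17.4% to 19.7% in WT cells, in the authors' deposited table. A 74-nt exon of ARFIP2, which binds small GTPases at the Golgi (chromosome 11, 6499809 to 6499882), stood at 2.33% in R749H, 5.6% in E1126G and 17.9% in WT cells in the authors' deposited tables. It fell in both mutants (adjusted p = 2e-06 in R749H and 0.0067 in E1126G). RASL-seq gave 6.31% in R749H, 7.27% in E1126G and 10.7% in WT cells for ARFIP2 in the authors' deposited tables, and neither difference passed (adjusted p = 0.41 and 0.35). In ZBTB33, a methyl-CpG binding repressor, a 102-nt exon listed in 2 rows fell and stood at 1.52% in R749H and 17.4% in WT cells in the authors' deposited table. KLHL7, a cullin adaptor, had a 131-nt exon at 4.96% in R749H and 19.7% in WT cells in the authors' deposited table. RASL-seq put the KLHL7 exon at 3.98% in R749H and 4.15% in WT cells in the authors' deposited table, which did not pass (adjusted p = 0.84). ASCC1 and the pseudogene ASNSP1, whose reads may belong to its parent gene, completed the decreases.

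In E1126G cells fewer of these exons were called, and again more were higher than lower. Higher inclusion was called for 130 of 2683 exons, against 2.2% of all 14650 events, and lower inclusion for 31, against 4.27%. That is 6.0% of the mostly skipped exons, near the 6.48% called over all events. Of the called exons 80.7% were higher, against 34.0% of called events over the whole table and 25.4% of the other exons of this length. As in R749H the WT level chose the exons, so the split is a description. The median log2 change was 0.10, against -0.08 over all events, and 8 exons exceeded 50% inclusion with a call.

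The 10 largest E1126G increases spanned 37.7 to 62.8 points. A 230-nt exon of EFR3A, which anchors a lipid kinase at the plasma membrane (chromosome 8, 133013016 to 133013245), stood at 75% in E1126G, 36.7% in R749H and 12.2% in WT cells in the authors' deposited tables. A 113-nt exon of EBF3, a transcription factor (chromosome 10, 131637347 to 131637459), stood at 65.7% in E1126G, 50.3% in R749H and 11.6% in WT cells in the authors' deposited tables. ITSN1, a scaffold of endocytosis, has an 83-nt exon (chromosome 21, 35201272 to 35201354) that reached nearly the same level in both mutants. It stood at 63.3% in E1126G, 63.8% in R749H and 13.5% in WT cells in the authors' deposited tables, and rose in each (adjusted p = 0.0039 and 2.4e-04). A 162-nt exon of AUH, a mitochondrial enzyme of leucine breakdown that also binds RNA (chromosome 9, 94122561 to 94122722), stood at 64.9% in E1126G, 29.8% in R749H and 16.4% in WT cells in the authors' deposited tables. YPEL5 (61 nt) and 2 exons of MAX, described next, also belong to the 10 largest increases, and the other 3 lie in pseudogenes. SMG1P1 and SMG1P4 are listed with identical values, 57.1% in E1126G and 18% in WT cells in the authors' deposited table, so their reads cannot be told apart. RASL-seq put the SMG1P1 exon at 20.2% in E1126G and 18.9% in WT cells in the authors' deposited table, which did not pass (adjusted p = 0.22). RNF216P1 may likewise share reads with its parent gene.

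MAX, the partner that MYC needs to bind DNA, has a pair of overlapping exons of this kind, of 85 nt (chromosome 14, 65544062 to 65544146) and 101 nt (65544046 to 65544146). The 101-nt exon stood at 48.6% in R749H, 50% in E1126G and 4.09% in WT cells in the authors' deposited tables of RNA-seq. The 85-nt exon stood at 50%, 56.3% and 7.86% in R749H, E1126G and WT cells in the authors' deposited tables. They share 1 boundary, so their reads overlap, and RASL-seq lists the same values for both. On RASL-seq they stood at 10.2% in R749H, 17.9% in H1106Y, 21.9% in E1126G and 2.93% in WT cells in the authors' deposited tables, and all 3 increases passed (adjusted p = 2.1e-09, 1e-22 and at most 2.6e-67).

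VEGFA, the main growth factor of blood vessels, gave 2 of the 5 largest E1126G decreases. Its 72-nt exon form (chromosome 6, 43748469 to 43748540) stood at 6.79% in R749H, 3.77% in E1126G and 17.3% in WT cells in the authors' deposited tables of RNA-seq. RASL-seq gave 5.76% in R749H, 5.87% in H1106Y, 3.64% in E1126G and 10.1% in WT cells in the authors' deposited tables. All 5 of these differences were called lower, with adjusted p-values of 0.0063 and 0.013 in R749H and E1126G RNA-seq. The 54-nt form starts at the same base and stood at 8.28%, 3.42% and 16.0% in R749H, E1126G and WT cells in the authors' deposited tables of RNA-seq. In R749H its fall was called on RASL-seq (adjusted p = 5.5e-06) but not on RNA-seq (adjusted p = 0.062). LARP4B, an RNA-binding protein, CLDND1 and PDZD11 gave the other large decreases, at 1.14%, 2.65% and 4.64% in E1126G cells against 15.3%, 16.9% and 18.6% in WT cells in the authors' deposited table.

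**Figure D3:**
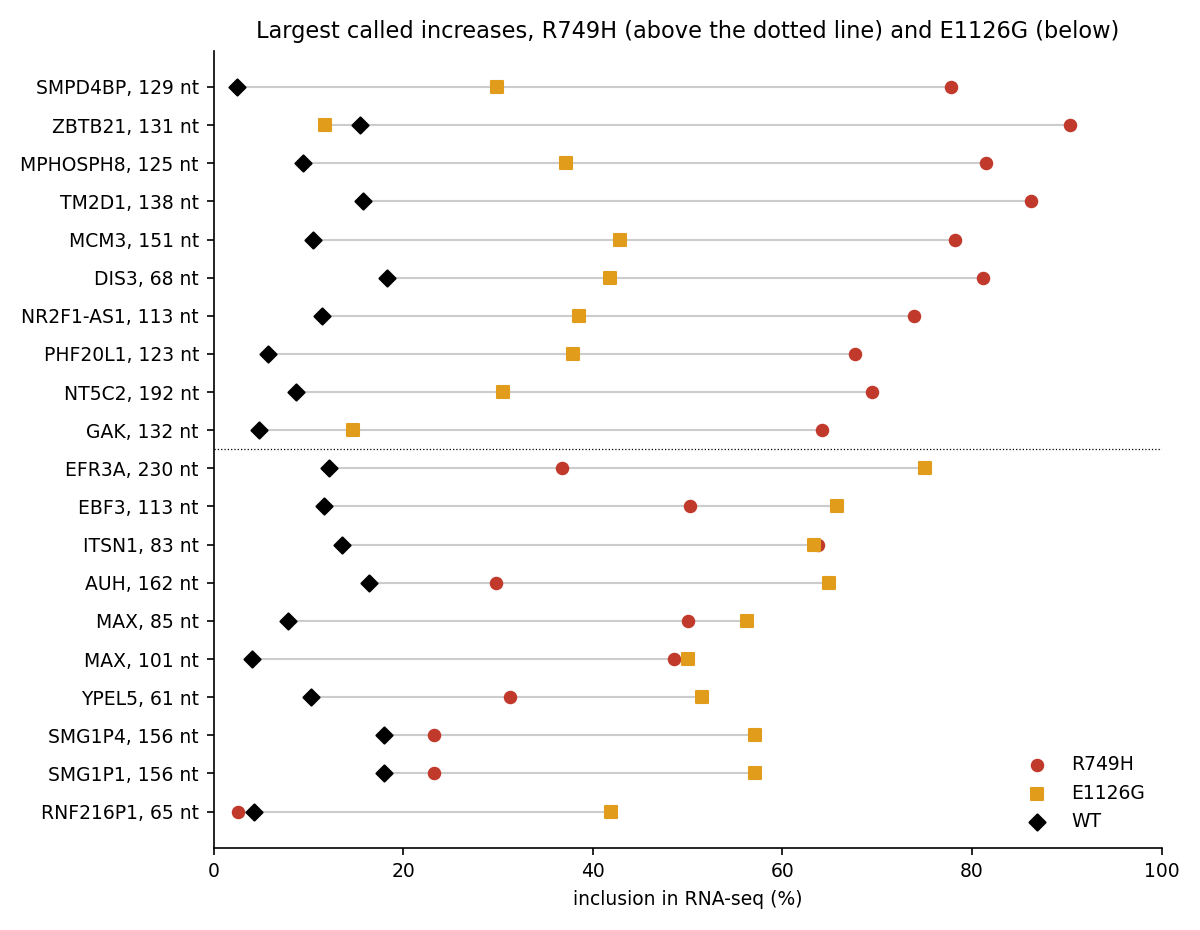
RNA-seq inclusion (x axis, percent) of the exons with the 10 largest called increases in R749H (above the dotted line) and in E1126G (below it), named by gene and length, in R749H (red circles), E1126G (orange squares) and WT cells (black diamonds). R749H levels above the line run from 64.2% to 90.3% and E1126G levels below it from 41.9% to 75%, while all WT levels are under 20%; no error bars are drawn because the tables hold 1 value per genotype, and the E1126G table has no row for TM2D1.

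RASL-seq, in separate libraries, called these exons about as often as events of any kind. In R749H, 45 of 217 exons were higher, against 24.0% of all 2248 events, and 44 lower, against 20.1%, so that 41.0% were called, against 44.1%. In H1106Y, 64 of 191 were higher, against 23.7% of all 2070 events, and 48 lower, against 38.2% (58.6% called, against 61.9%). In E1126G, 43 of 226 were higher, against 13.9% of all 2312 events, and 55 lower, against 33.6% (43.4% called, against 47.5%). The share of calls that were higher was 50.6% in R749H, 57.1% in H1106Y and 43.9% in E1126G, against 54.5%, 38.3% and 29.2% over all events. All events include many exons with high WT inclusion. Among exons under 20% WT inclusion on RASL-seq, the share was 53.9%, 59.4% and 45.2% for the mostly skipped ones. For the other RASL-seq events under 20% it was 51.5%, 56.1% and 28.4%, so in R749H and H1106Y the 2 groups were close. Over all events the median log2 change on RASL-seq was 0.05 in R749H, -0.33 in H1106Y and -0.37 in E1126G, while for the mostly skipped exons it was -0.06, 0.22 and -0.16. Few of the changes were large: 8 higher and 6 lower exons moved by at least 10 points in R749H, 30 and 8 in H1106Y, and 10 and 9 in E1126G. Over all events these counts were 194 and 182 of 2248, 266 and 414 of 2070, and 97 and 317 of 2312. An exon under 10% in WT cells cannot fall by 10 points, which limits the lower counts.

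Where RNA-seq had called an exon, RASL-seq mostly went the same way. Of the 31 exons called higher in R749H RNA-seq and covered by RASL-seq, 30 had a RASL-seq change above 0 and 22 were themselves called higher, and none was called lower. PHF20L1 was the exception. All 10 exons called lower in R749H RNA-seq also had a RASL-seq change below 0, and 5 were called lower. In E1126G all 15 higher exons had a RASL-seq change above 0, with 11 called, and all 6 lower ones had a change below 0, with 4 called. Among exons of any kind that both assays covered, 146 of 155 R749H increases and 58 of 60 E1126G increases had a RASL-seq change above 0. Over the 207 exons in both R749H tables the log2 changes had a Pearson's r of 0.50 and a Spearman's rho of 0.51, and over 219 exons in E1126G 0.53 and 0.49. These coefficients are across exons, several of which overlap or share a junction, and are given as a description. Of the 207 exons RNA-seq had called 31 higher and 10 lower in R749H, whereas RASL-seq called 45 higher and 38 lower.

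**Figure D4:**
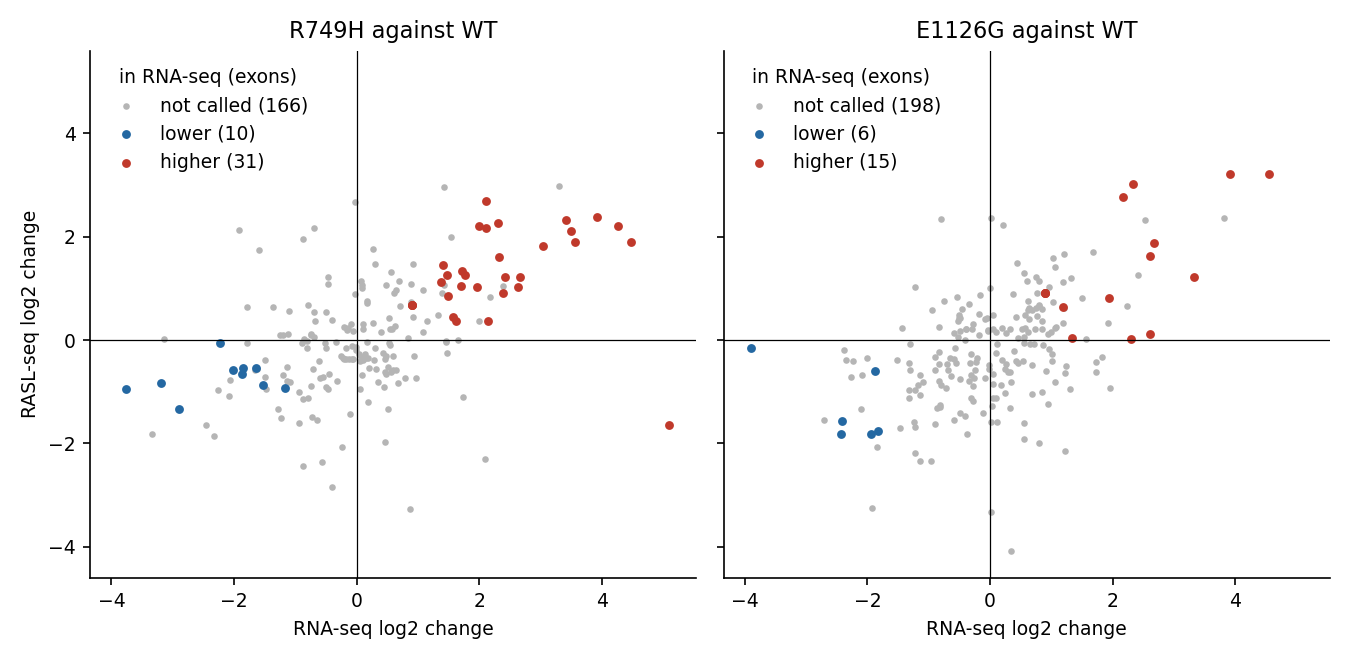
The log2 change of the inclusion ratio on RASL-seq (y axis) against RNA-seq (x axis), mutant over WT, for mostly skipped exons covered by both assays, 207 in R749H (left) and 219 in E1126G (right). Colours show the RNA-seq call; red exons (higher) lie above 0 on RASL-seq except for 1 R749H exon, in PHF20L1, and blue exons (lower) lie below 0.

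On RASL-seq the largest H1106Y increases were in TRA2A and RFC5, with 58.0 and 57.9 points. In TRA2A, a splicing activator, a 90-nt exon (chromosome 7, 23570800 to 23570889) stood at 54.1% in R749H, 80.8% in H1106Y, 28.5% in E1126G and 22.8% in WT cells in the authors' deposited tables of RASL-seq. All 3 were increases that passed (adjusted p = 1.8e-33, 1.2e-122 and 5.8e-04). RNA-seq put this exon at 40.4% in R749H, 18.4% in E1126G and 18.9% in WT cells, neither of which passed (adjusted p = 0.071 and 0.98 from the authors' deposited tables). A 94-nt exon of JMJD6, an oxygenase that modifies splicing factors (chromosome 17, 74717345 to 74717438), stood at 13.0% in R749H, 55.4% in H1106Y, 2.71% in E1126G and 3.14% in WT cells on RASL-seq in the authors' deposited tables. It rose in both slow mutants (adjusted p = 4.3e-20 and 7.2e-83) and was not called in E1126G (adjusted p = 0.44). CCNC, the cyclin of the Mediator kinase, also rose in both slow mutants and was not called in E1126G (adjusted p = 0.073). Its 68-nt exon (chromosome 6, 99992082 to 99992149) stood at 15.2% in R749H, 53.1% in H1106Y, 7.89% in E1126G and 6.94% in WT cells on RASL-seq in the authors' deposited tables. A 258-nt exon of SUOX, sulfite oxidase, stood at 46.7%, 26.3%, 70.0% and 10.0% in R749H, H1106Y, E1126G and WT cells on RASL-seq in the authors' deposited tables, with calls in R749H and E1126G only (adjusted p = 0.030 and 0.0032, against 0.17 in H1106Y). On RNA-seq the SUOX exon was at 70% in R749H and 19.2% in WT cells in the authors' deposited table and was not called (adjusted p = 0.12). C11orf54 and ECT2, a regulator of cytokinesis, were higher in E1126G alone by these calls, and whether the mutants differ there was not tested.

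The largest RASL-seq decrease was in SMARCA2 in H1106Y cells. This 54-nt exon of SMARCA2, an ATPase of the SWI/SNF remodeller (chromosome 9, 2170419 to 2170472), stood at 22.5% in R749H, 12.0% in H1106Y, 45% in E1126G and 42.1% in WT cells in the authors' deposited tables of RASL-seq. It fell in R749H (adjusted p = 2.8e-12) and H1106Y (2.8e-34) and was not called in E1126G (0.22). RNA-seq also called this exon lower in R749H, at 2.68%, against 17% in WT cells, in the authors' deposited table. HELLS, another chromatin remodeller, had a 138-nt exon at 3.98% in R749H and 4.4% in E1126G, against 16.9% in WT cells, on RASL-seq in the authors' deposited tables. RNA-seq put the HELLS exon in the opposite order, at 7.78% in R749H, 4.4% in E1126G and 1.94% in WT cells in the authors' deposited tables, with no call (adjusted p = 0.22 and 0.71). DNMT3B, a DNA methyltransferase, had a 70-nt exon at 2.12% in E1126G and 17.8% in WT cells on RASL-seq in the authors' deposited table (adjusted p = 5.1e-06). On RNA-seq the DNMT3B exon was at 12.2% in E1126G and 12.1% in WT cells in the authors' deposited table, and was not called (adjusted p = 1.0). A 178-nt exon of ATP2B4, a calcium pump, was called in opposite directions, with 4.69% in R749H, 54.8% in E1126G and 19.6% in WT cells on RASL-seq in the authors' deposited tables. RNA-seq did not call the ATP2B4 exon in E1126G (adjusted p = 0.61) and has no R749H value for it. Exons of PIGC, ZFYVE27, VAPA, ICMT, RPS6KB1, TSC2, METTL15 and VEGFA made up the rest of the 5 largest decreases per mutant. The RPS6KB1 exon was at 72.3% in WT RASL-seq and 9.02% in WT RNA-seq in the authors' deposited tables, which are far apart.

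Besides MAX and VEGFA, exons of RFC5, HNRNPD, RBM3, BUD23 and PMAIP1 were called in the same direction in every one of the 5 comparisons, all of them higher. The comparisons of an assay share its WT libraries, so they are not independent. RFC5, a subunit of the clamp loader, had its 126-nt exon (chromosome 12, 118455495 to 118455620) at 69.6% in R749H, 47.7% in E1126G and 17% in WT cells on RNA-seq in the authors' deposited tables. RASL-seq gave 66.5% in R749H, 89.3% in H1106Y, 75.8% in E1126G and 31.4% in WT cells for RFC5 in the authors' deposited tables. HNRNPD, which binds AU-rich RNA, had a 107-nt exon (chromosome 4, 83276048 to 83276154) at 43.0% in R749H, 20.2% in E1126G and 4.77% in WT cells on RNA-seq in the authors' deposited tables. On RASL-seq the HNRNPD exon stood at 6.88% in R749H, 11.1% in H1106Y, 10.4% in E1126G and 1.39% in WT cells in the authors' deposited tables. BUD23, a methyltransferase of ribosomal RNA, has a 51-nt exon (chromosome 7, 73111796 to 73111846), the shortest length the rule allows. It stood at 43.1% in R749H, 30.2% in E1126G and 6.64% in WT cells on RNA-seq in the authors' deposited tables. The 269-nt exon of RBM3, a cold-induced RNA-binding protein (chromosome X, 48434203 to 48434471), stood at 18.3% in R749H, 24.8% in E1126G and 4.93% in WT cells on RNA-seq in the authors' deposited tables. PMAIP1, the apoptosis protein NOXA, showed the smallest levels, with its 151-nt exon at 6.28% in R749H, 5.43% in E1126G and 2.46% in WT cells on RNA-seq in the authors' deposited tables.

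Grouped by known function, the exons were counted in 9 gene lists, beside all mostly skipped exons, of which 11.9% were called higher and 3.57% lower in R749H and 4.85% and 1.16% in E1126G. In R749H the share called higher was 35.7% for RNA surveillance and 3′ end processing, 26.1% for splicing regulators, 24.2% for chromatin, 22.6% for polymerase II transcription, 18.2% for cell cycle and 14.5% for mitochondrial genes. It was near or under that of all mostly skipped exons for SR proteins (11.8%), the core spliceosome (8.33%) and the cytoskeleton (5.41%). The lists hold 14 to 55 exons each, and no difference between a list and the rest was tested. Among genes of RNA surveillance and 3′ end processing, 5 of 14 exons were higher and none lower in R749H, and 1 was higher and none lower in E1126G. EXOSC9, of the exosome, had a 51-nt exon at 41.7% in R749H, 15.4% in E1126G and 8.78% in WT cells in the authors' deposited tables. CPSF7 and CPSF6, of the cleavage factor that recruits polyadenylation machinery, had exons at 24.6% and 25.3% in R749H, against 3.72% and 11.5% in WT cells, in the authors' deposited table. The CPSF6 exon was not called on RASL-seq in R749H (adjusted p = 0.25). For the R749H exons the median log2 change of this list was 1.16, against 0.09 for all mostly skipped exons. Chromatin regulators had 8 of 33 exons higher and 1 lower in R749H (median 0.70), and 3 of 32 higher in E1126G (median 0.02). SMARCA4, another ATPase of the SWI/SNF remodeller, had a 99-nt exon (chromosome 19, 11144443 to 11144541) at 43.1% in R749H, 8.56% in E1126G and 13.2% in WT cells on RNA-seq in the authors' deposited tables. RASL-seq put the SMARCA4 exon at 3.22% in R749H, 7.5% in H1106Y, 0.784% in E1126G and 1.08% in WT cells in the authors' deposited tables. There it rose in both slow mutants (adjusted p = 1.4e-15 and 1.9e-64) and fell in E1126G (0.0029). ARID4B and CHD2 had exons at 49.2% and 44.6% in R749H, against 14.7% and 13.6% in WT cells, in the authors' deposited table.

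Polymerase II transcription genes had 7 of 31 exons higher and 1 lower in R749H (median log2 change 1.0), and 1 of 33 higher in E1126G (median 0.15). With the exons under 5% WT inclusion left out, this list had 2 calls in R749H and 0 in E1126G. CCNL2, a cyclin that binds splicing kinases, had 2 such exons. Its 98-nt exon (chromosome 1, 1324330 to 1324427) stood at 23.2% in R749H, 4.58% in E1126G and 2.7% in WT cells in the authors' deposited tables. CDK12, a kinase of the polymerase tail, had a 195-nt exon at 50% in R749H and 10.9% in WT cells in the authors' deposited table. hnRNP proteins and other splicing regulators had 6 of 23 exons higher and 1 lower in R749H, and 2 of 23 higher in E1126G (medians 0.30 and 0.13), and without the exons under 5% WT inclusion it had 2 calls in R749H and 0 in E1126G. HNRNPH1, which binds G-rich RNA, had a 134-nt exon (chromosome 5, 179048844 to 179048977) at 22.4% in R749H, 3.63% in E1126G and 1.48% in WT cells in the authors' deposited tables. TIAL1 and RBM23 rose by 9.7 and 8.6 points in R749H in the authors' deposited table. SR proteins and their relatives had 2 of 17 exons higher in R749H, and 1 higher and 1 lower in E1126G (medians 0.20 and -0.19). SRSF7 carried the larger change, with a 276-nt exon (chromosome 2, 38976040 to 38976315) at 45.6% in R749H, 20.7% in E1126G and 14.7% in WT cells in the authors' deposited tables. LUC7L, related to a U1 snRNP protein, had a 141-nt exon at 9.84% in R749H, 6.26% in E1126G and 2.07% in WT cells in the authors' deposited tables. Its paralogue LUC7L3 fell in E1126G, with 3.46% against 7.06% in WT cells in the authors' deposited table (adjusted p = 0.018).

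Core spliceosome genes had 2 of 24 exons higher and 1 lower in R749H and none of 23 called in E1126G (medians -0.09 and 0.00457). Their largest change was in DDX46, a helicase of the U2 snRNP, with a 117-nt exon at 54.7% in R749H, 23.9% in E1126G and 18.7% in WT cells in the authors' deposited tables. On RASL-seq the DDX46 exon was called higher in H1106Y and E1126G but not in R749H (adjusted p = 1.7e-04, 1.2e-04 and 0.15). SNRNP40 rose and USP39 fell, to 10.5% and 5.14% in R749H, against 3.45% and 13.5% in WT cells, in the authors' deposited table. Cell cycle, DNA repair and apoptosis genes had 8 of 44 exons higher and 4 lower in R749H and 2 of 44 higher in E1126G (medians 0.27 and 0.10). CENPK, of the kinetochore, had 206-nt and 137-nt exons at 43.6% and 23.4% in R749H, against 9.16% and 4.01% in WT cells, in the authors' deposited table. Mitochondrial and metabolic genes had 8 of 55 higher and 1 lower in R749H and 6 of 53 higher in E1126G (medians 0.17 and 0.38). MRPL55, of the mitochondrial ribosome, has overlapping exons of 161 and 108 nt, and the longer stood at 55.0% in R749H, 18.6% in E1126G and 3.2% in WT cells in the authors' deposited tables. Cytoskeleton and adhesion genes had 2 of 37 higher and 1 lower in R749H and 1 of 35 higher in E1126G (medians 0.14 and -0.24). TPM1, a tropomyosin, rose in both mutants in a 76-nt exon, with 40.1% in R749H, 33.3% in E1126G and 16.2% in WT cells in the authors' deposited tables. Its relative TPM3 fell, with 2.38% in R749H and 5.23% in WT cells in the authors' deposited table, while ITGB1, an integrin, rose, with 2.31% in R749H and 0.289% in WT cells.

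On RASL-seq each list had few of these exons. In R749H, H1106Y and E1126G, 44.1%, 61.9% and 47.5% of all RASL-seq events were called in either direction. Of all mostly skipped exons there, 41.0%, 58.6% and 43.4% were called, and no list was tested against them. R749H, H1106Y and E1126G had 2, 1 and 1 of 4 SR-list exons higher and 1 lower each. The 1 exon of the splicing regulators, in HNRNPD, was higher in all 3. Of 7 chromatin exons 1, 2 and 2 were higher and 1, 1 and 2 lower, and of 3 polymerase II exons 2, 2 and 0 were higher and 1 lower in each. Of 2 surveillance exons 1 was higher in each mutant, and of 2 core spliceosome exons 0, 1 and 1 were higher and 0, 0 and 1 lower. Cell cycle genes had 10, 9 and 10 exons with 2, 3 and 3 higher and 1, 3 and 2 lower, and cytoskeleton genes 5, 4 and 5 with 1, 2 and 0 higher and 1, 0 and 2 lower. Neither of the 2 mitochondrial exons was called.

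R749H was also set directly against E1126G in RNA-seq, a difference in which the WT level that chose the exons cancels. An approximate z, built on standard errors worked back from the deposited p-values, called 47 of 2485 exons (1.89%), near the 1.74% of all 13247 events. Inclusion was higher in R749H for 33 of them, against 1.18% of all events, and lower for 14, against 0.559%, a share higher of 70.2%, against 67.8% over all events. Among the largest differences, ATAD3B, a mitochondrial ATPase, had a 120-nt exon at 57.0% in R749H and 7.75% in E1126G in the authors' deposited tables. ATAD3B has close paralogues, so its reads may be shared. COQ3, an enzyme of coenzyme Q synthesis, had a 123-nt exon at 68.1% in R749H and 21.7% in E1126G in the authors' deposited tables. L3MBTL2, a reader of methylated histones, had a 105-nt exon at 48.3% in R749H and 4.0% in E1126G in the authors' deposited tables. GEMIN6, of the complex that assembles snRNPs, had a 184-nt exon at 54.3% in R749H and 12.1% in E1126G in the authors' deposited tables, and GAK, above, was the other of the 5. In the opposite direction the differences were smaller. SPTLC1, of sphingolipid synthesis, had a 133-nt exon at 5.51% in R749H and 29.9% in E1126G in the authors' deposited tables. TOMM20, a mitochondrial import receptor, had a 68-nt exon at 2.88% in R749H and 13.1% in E1126G in the authors' deposited tables. Exons of NPEPPS, EI24 and PHPT1 were also lower in R749H. The called MCM3, SMARCA4, SRSF7, HNRNPH1 and CCNL2 exons were higher in R749H than in E1126G by the same test (adjusted p = 1.5e-05, 9.1e-06, 0.0063, 5.5e-04 and, for the 98-nt CCNL2 exon, 6.5e-05).

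Lengths divisible by 3 were less common among the mostly skipped exons. They made up 39.6% (1119 of 2823, exact 95% binomial interval 37.8 to 41.5), against 43.5% of the other 10819 exons in the length window (42.5 to 44.4). The share was not even across WT levels. It was 47.2% in the 142 exons under 1%, between 37.9% and 38.7% in the 4 groups from 1% to 15%, and 45.5% in the 321 exons from 15% to 20%. Above the limit it was 44.7% from 20% to 50% WT inclusion, 47.1% from 50% to 80%, and 42.8% and 42.7% in the 2 groups above that. The intervals cover counting error only, and exons of a gene are not independent. Exons divisible by 3 had a median length of 108 nt and the others 116 nt.

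Exons with a length divisible by 3, named frame-keeping below, were called about as often on RNA-seq as the others. The name refers to length alone, since it is not known which of these exons lie in coding sequence or carry a stop codon. In R749H 15.2% of 1038 exons divisible by 3 and 15.7% of 1595 others were called, with 119 higher and 39 lower against 195 and 55. In E1126G the shares were 5.31% of 1055 and 6.45% of 1628, with 40 higher and 16 lower against 90 and 15. Thus 71.4% of E1126G calls were higher among exons divisible by 3 (interval 57.8 to 82.7) and 85.7% among the others (77.5 to 91.8). Of the 10 largest increases 5 in R749H and 3 in E1126G were divisible by 3. On RASL-seq, frame-keeping exons were less deeply skipped in WT cells, with a median inclusion of 5.68% over 129 exons, against 3.03% over 108 others, and 76.0% against 88.0% below 20%. RASL-seq calls in R749H were 22 higher and 28 lower among 121 frame-keeping exons and 23 and 16 among 96 others. In H1106Y they were 38 higher and 24 lower of 102, against 26 and 24 of 89. In E1126G they were 16 higher and 34 lower of 122, against 27 and 21 of 104. The difference between frame classes was not tested.

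The exons that rose lay in short spans. The span is the distance between the exons on either side, with the skipped exon inside it. In R749H its median was 2770 nt for the 314 higher exons, 4932 nt for the 94 lower ones and 4992 nt for the 2225 that were not called. In E1126G the medians were 2750, 3037 and 4792 nt in the same order. The same order of higher and uncalled exons was seen among the other exons of this length, with 2257 nt for the 579 that were higher and 5447 nt for the 8388 not called in R749H. The intron upstream of the exon had a median of 692.5 nt for exons higher in R749H and 1733 nt for those not called, and the downstream intron 1190 and 1872 nt. The higher exons were also longer, with a median of 122 nt in R749H and 139 nt in E1126G, against 112 nt for uncalled ones in each. Read depth per exon, which also decides what can be called, is unknown here, and its part in these differences was not tested. As a whole the mostly skipped exons resembled the other exons of their length in size, with a median of 113 nt in both, in span (4740 and 5174 nt) and in gene type, with 97.8% and 96.5% in protein-coding genes among those whose symbol has a RefSeq gene type.

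**Figure D5:**
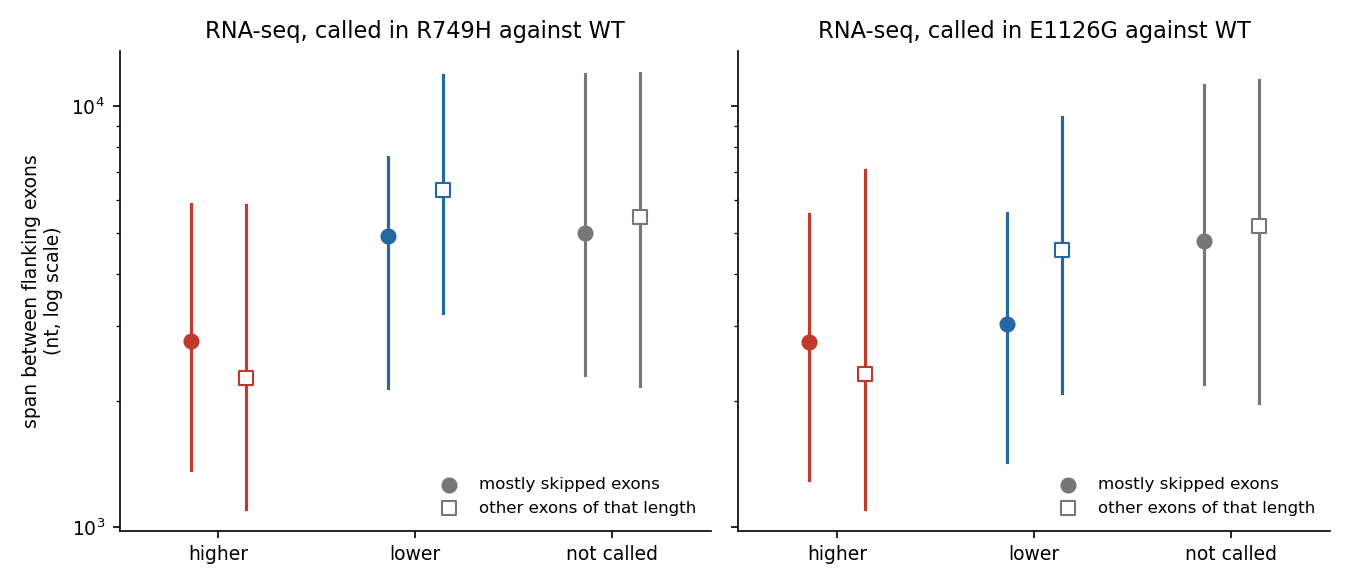
Span between the flanking exons (y axis, nt, log scale) of exons called higher, called lower or not called in R749H (left) and in E1126G (right) RNA-seq. Filled circles are medians of mostly skipped exons, open squares those of the other exons of the same length window, and lines run over the middle 50% of exons; higher exons have the shortest median in each panel, 2770 nt in R749H and 2750 nt in E1126G for the filled circles.

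Intron retention tables held 31 introns that are exactly the span over a mostly skipped exon. In R749H 12 of these had more retention and 2 less, against 11.9% and 6.99% of all 2605 introns (18.9% called). In E1126G 5 had more and 1 less, against 4.51% and 4.67% of 2615 introns (9.18% called). Around SRSF7 the span was retained at 71.5% in R749H and 38.5% in WT cells in the authors' deposited table, next to the rise of its exon. Around L3MBTL2 it was 63.5% in R749H and 9.93% in WT cells, and around RBM3 57.2% and 18.8%, in the authors' deposited table. Retention over the EXOSC9 exon was 25.3% in R749H and 11.3% in WT cells, and over the TIAL1 exon 84.2% and 47.5%, in the authors' deposited table. These genes are examples among those whose exons are described above, and each had a called rise in retention. The 2 calls did not always go together. Retention also rose over exons of KANSL2, CLMN, RBM39, RACK1 and BRAT1, which were not themselves called in R749H (adjusted p = 0.13, 0.32, 0.13, 0.19 and 0.14). Retention over the TPM1 and CPSF7 exons, also described above, was 20.5% and 24.6% in R749H, against 12.7% and 15.8% in WT cells. Neither was called (adjusted p = 0.25 and 0.41 from the authors' deposited table). The same libraries gave both measures, and the sources used here do not say whether reads on the exon also counted as retention. The part of unspliced RNA in the exon values was not tested. Of the introns directly beside a mostly skipped exon, 13 upstream and 18 downstream ones were in the R749H table, with 1 higher and 1 lower upstream and 3 lower downstream. The lower downstream introns lay beside exons of PFDN5 and NME4, which were called higher, and of RPS9, which was not called.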

How the data were processed

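The measurements are polyA+ RNA-seq and RASL-seq of HEK293 lines. Per the labels' protocols, RNA-seq reads of each sample were mapped with TopHat 1.4.1; the submitters' processing notes also name Bowtie 0.12.7, edgeR 3.7.17 and GRCh37. The sources used here do not say how inclusion was counted and tested. The authors' deposited tables hold, per event, the inclusion-to-exclusion ratio of WT cells as a natural log, its log2 change (mutant over WT) and an unadjusted p-value. The table marked with a code is R749H, since the labels of the R749H samples list it. Over the mostly skipped exons, the WT ratio of RNA-seq equalled a quotient of integers, denominators running up to 300 with a tolerance of 1e-09, for 78.6% with the natural log in the R749H table and 0.0% with base 2, and the mutant ratio for 81.1% with mutant over WT and 8.51% with the opposite sign.

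Inclusion in percent was computed here from the ratio as ratio / (1 + ratio). Benjamini-Hochberg adjustment of the deposited p-values ran over each whole table, with a threshold of 0.05. The difference between R749H and E1126G was divided by the errors implied by their p-values, an approximation that takes the comparisons as independent although they share WT libraries. Whether the deposited p-values carry the spread between libraries is unknown; the labels call the RNA-seq replicates biological, and those of RASL-seq are numbered only. RNA-seq and RASL-seq exons were matched by gene, span and exon coordinates. Exon coordinates are printed 1-based. Gene symbols came from the identifiers (2797 of 2823 rows matched). Among the rows, 39 exons are listed more than once, 360 exons overlap another one and 16 have the values of a separate exon elsewhere.

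Exons were named by size of change: the 10 largest increases and 5 largest decreases called in each RNA-seq table, 5 and 5 in each RASL-seq table and in the direct comparison, those called alike in all 5 tables, up to 4 per gene list, and 2 on each side of the WT limit. The exons, lists and tests were chosen with earlier results of these data known. Alternatives varied the p threshold, the WT limit, a lower WT limit, a correction for 2 junctions, repeated exons, the tables required and a minimum change. Python 3.11.15, scipy 1.17.1 and statsmodels 0.14.6 were used. The 16 GRO-seq samples were not analysed here, and no genome sequence was used here.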

Additional observations from a re-analysis of the deposited data

Results flagged for a closer look

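For these exons the change in R749H and the change in E1126G differed by the approximate test of the difference itself. The log2 difference, R749H minus E1126G, was 3.98 in ATAD3B (adjusted p = 0.0025), 4.49 in L3MBTL2 (0.0036), 3.11 in GEMIN6 (0.010), 2.95 in COQ3 (0.0085) and 3.38 in GAK (0.018). It was -2.87 in SPTLC1 (adjusted p = 0.035), -2.97 in NPEPPS (0.038), -2.24 in EI24 (0.028), -1.81 in PHPT1 (0.012) and -2.35 in TOMM20 (2.2e-05). The adjustment ran over all events of both RNA-seq tables, and only the 5 largest differences in points in each direction are given.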

How the results depend on the processing

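The alternatives applied to the named calls moved thresholds or divided both ratios by 2, so none of them could change a direction. Of these calls, 22 were lost at an adjusted p under 0.01 and 43 at a minimum of 10 points. With an adjusted p under 0.01 the exons called numbered 253 in R749H RNA-seq, 90 in E1126G RNA-seq and 23 in the direct comparison (408, 161 and 47 at 0.05), which had 74 at 0.1. With a WT inclusion of at least 5% these counts were 269, 95 and 28. Requiring 10 points left 257 and 89 in R749H and E1126G RNA-seq, and 14, 38 and 19 in R749H, H1106Y and E1126G RASL-seq, against 89, 112 and 98. Dividing the inclusion ratio by 2, which enlarges the group to 3432, gave 137 and 154 in R749H and E1126G RASL-seq. The other counts over all mostly skipped exons stayed within 1.5 times, but 40 of 162 gene list counts did not. With a WT inclusion of at least 5%, R749H calls numbered 2 in place of 8 for polymerase II transcription, 2 in place of 7 for splicing regulators and 4 in place of 9 for mitochondrial genes. With the ratio divided by 2 the SR list had 6 R749H and 5 E1126G calls in place of 2 each. The share of R749H RNA-seq calls that were higher ranged from 69.5% (WT inclusion at least 5%) to 90.7% (at least 10 points), and on RASL-seq from 48.5% to 57.1% in R749H, 51.1% to 78.9% in H1106Y and 39.7% to 52.6% in E1126G. The share of lengths divisible by 3 ranged from 38.9% to 40.6%. Taking direction around the median of all events, a check added after seeing the data, left the RASL-seq shares of these exons at 50.6%, 57.1% and 43.9%. The calls were not remade around that median, so only calls with a change between 0 and the median could have switched. The check therefore says little about a shift of a whole table.

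No paired analysis was possible because the tables hold no value per library, and for the same reason leaving out replicates was not run. Depth is unknown, and a change in an exon that was not called was not detectable at this depth.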
